A study of Homo sapiens with 12 samples.

Results

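The 10 genes described are ATF4 and DDIT3, the gene for CHOP, with 8 genes known as their targets or partners in the cellular stress response: TRIB3, CHAC1, STC2, SESN2, DDIT4, VLDLR, CEBPB and ATF5. They were chosen by name, as the rows of the count table whose Ensembl identifier maps to these symbols. The table held 58233 genes, and all 10 were among the 15749 that passed a filter on low counts and were tested. RNA was sequenced from 12 libraries of MCF10-A, an immortal but non-malignant line of human breast epithelium, after 3 hours of detachment on poly-HEMA, a coating to which cells cannot attach. All cells had been trypsinized, and all were kept without serum during detachment. The series concerns integrin alpha 6 beta 4, through which epithelial cells hold on to laminin.

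There were 6 groups of 2 libraries: Addback EDTA, Addback NA, B4-4 EDTA, B4-4 NA, Vector EDTA and Vector NA. Addback, B4-4 and Vector are derivatives of the line, and EDTA is a chelator of calcium and magnesium. How B4-4 and Addback were made, whether each is 1 clone, what NA stands for, and at which dose EDTA was used are things that the sources used here do not give. Every group was detached, so no group measures attached cells. The labels do not say that the libraries of a group came from separate cultures, so p-values measure only the spread between these libraries, which may be technical.

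ATF4 is a basic leucine zipper transcription factor of the integrated stress response. Kinases that sense amino acid shortage, unfolded protein in the endoplasmic reticulum, viral RNA or haem shortage phosphorylate the initiation factor eIF2alpha, which lowers translation in general and raises that of the ATF4 mRNA. Because the control is mainly on translation, the ATF4 mRNA level does not report the amount of ATF4 protein. ATF4 and its partners of the C/EBP family then switch on genes for amino acid supply together with regulators such as CHOP and TRIB3, and sustained CHOP is known to favour cell death.

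Levels are given as CPM, the count scaled to library size with TMM factors. Differences are log2 fold changes, each with its SE. Genes were called where the adjusted p of edgeR's quasi-likelihood test, fitted to all 12 libraries, was under 0.05 (Benjamini-Hochberg, 15749 genes). Library totals ran from 15685376 to 22156173 counts. The pairs of libraries were not equally alike. Among 10632 genes with at least 5 CPM, 389 stood 2-fold or more apart between the B4-4 NA libraries and 228 between the Addback EDTA libraries, against 5 to 9 in each of the other 4 groups. A tag in the labels reads L007 for Addback EDTA 2 and L008 for the other 11 libraries, and its meaning is not given. ITGB4, the beta 4 gene, was at 1060 to 1530 CPM in Addback, 182 to 395 CPM in B4-4 and 1680 to 1850 CPM in Vector. The 7 basal mammary markers summed to 9510 to 15300 CPM, the 6 fibroblast markers to 13.8 to 64.5 CPM, the 5 blood markers to 7.08 to 54.7 CPM and the 3 endothelial markers to 3.35 to 34.3 CPM, with CDH5, CD3E and HBB at 0 in all 12 libraries. These sums moved with the groups and are given again beside the comparisons with Vector NA. The basal list includes ITGB4 itself. Of the 5 blood markers 1 passed the filter on low counts, and CD14 had the most reads.

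Promoter windows that lie mostly upstream of the annotated start were available for all 10 genes, 17 windows in all, from RefSeq on GRCh38.p14. They were searched on both strands for TGATGNAA, the C/EBP-ATF response element read by ATF4 with a C/EBP partner. The windows are short, that of CHAC1 being chr15:40953221-40953520, and elements further away were not searched. Of the 10 genes, CHAC1 alone held the element in its window, against 4.46% of all 27305 genes with a window (3.62% of 35116 windows). It also stood in 14 of 46 genes for amino acid enzymes, tRNA synthetases and amino acid transporters, of which AARS1, an alanine tRNA synthetase, and ASNS, the asparagine synthetase, are shown because they are textbook carriers of the element. The lines give the gene's strand, with the element in capitals. The CHAC1 match lies within the gene bounds of GENCODE 29, in which longer transcripts start further upstream. CHAC1 is at chr15:40953251-40953280 on the plus strand, AARS1 at chr16:70289675-70289704 on the minus strand and ASNS at chr7:97872458-97872487 on the minus strand.
CHAC1: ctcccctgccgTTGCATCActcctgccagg
AARS1: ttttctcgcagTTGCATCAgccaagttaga
ASNS: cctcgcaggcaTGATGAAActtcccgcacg

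DDIT3 alone of the 10 genes held the core of the endoplasmic reticulum stress element, CCAAT and CCAC with 9 bases of any kind between them, which is read by ATF6 with NF-Y. This core stood in 0.381% of all genes (0.316% of windows) and in 5 of the 15 endoplasmic reticulum chaperone genes listed, among them HSPA5, the chaperone BiP, and HERPUD1, a factor of protein degradation at that membrane. The shorter CCAAT box, which lies within the core, was in 6 of the 10 genes and in 39.7% of all genes (34.6% of windows). TGACGTCA, the cyclic AMP response element, was in 0 of the 10 genes and in 2.25% of all genes (1.85% of windows). The 3 cores are shown in capitals: DDIT3 at chr12:57520591-57520620, minus strand, HSPA5 at chr9:125241386-125241415, minus strand, and HERPUD1 at chr16:56932053-56932082, plus strand.
DDIT3: gcggggCCAATGCCGGCGTGCCACtttctg
HSPA5: ccttcaCCAATCGGCGGCCTCCACgacggg
HERPUD1: cctcagCCAATGGGCGGCAGCCACagagcg

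The 192 bases of the DDIT3 window that lie in no annotated exon, at chr12:57520518-57520709 on the minus strand, hold the core. They lie inside the GENCODE 29 bounds of DDIT3, in which longer transcripts start further upstream. DDIT3 levels followed another order than those of TRIB3 and CHAC1, and whether the core has a part in that was not tested. A match in these windows is a run of letters and was not tested as a binding site.
DDIT3: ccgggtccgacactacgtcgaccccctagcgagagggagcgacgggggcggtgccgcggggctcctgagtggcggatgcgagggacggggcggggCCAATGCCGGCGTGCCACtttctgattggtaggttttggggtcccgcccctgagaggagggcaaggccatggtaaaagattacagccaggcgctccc

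The 10 genes did not move as a single block. TRIB3, CHAC1, STC2, SESN2, DDIT4, VLDLR and CEBPB, 7 of the 10, were higher in both Vector NA libraries than in any of the other 10 libraries. Over all genes tested, 8.07% had this pattern. ATF5 showed the reverse and was lower in both Vector NA libraries than in the other 10, as were 6.29% of all genes. ATF4 and DDIT3 had their highest level in a Vector EDTA library. In bulk RNA, fewer cells that express a gene and less RNA per cell cannot be told apart.

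**Figure D1:**
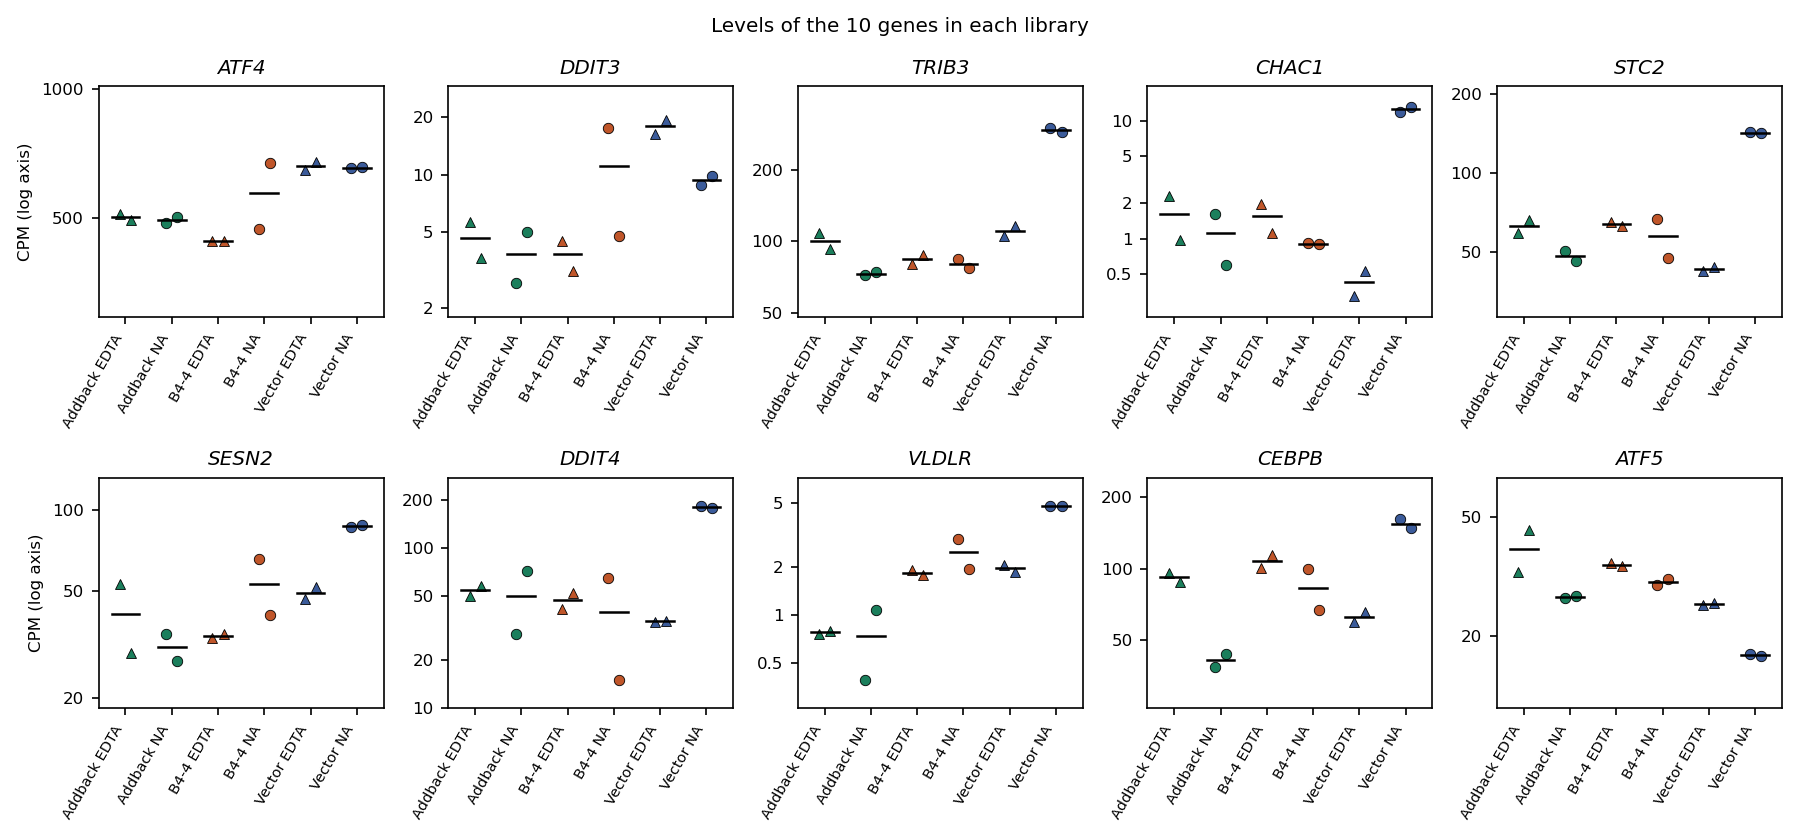
CPM on log axes for the 10 genes in the 12 libraries. Points are libraries (triangles EDTA, circles NA; green Addback, orange B4-4, blue Vector) and bars are group means. The blue circles of Vector NA stand above every other point for 7 genes, such as STC2 at 143 and 142 CPM, and below every other point for ATF5 at 17.4 and 17.2 CPM.

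Per kilobase of exon, ATF4 was the most abundant of the 10 at a mean of 221 CPM per kb over the 12 libraries, followed by CEBPB at 46.1 CPM per kb, TRIB3 at 36 CPM per kb and DDIT4 at 32.9 CPM per kb. SESN2 averaged 14.3 CPM per kb, STC2 11.4 CPM per kb, ATF5 9.83 CPM per kb and DDIT3 6.46 CPM per kb. CHAC1 at 1.46 CPM per kb and VLDLR at 0.224 CPM per kb were the scarcest. The lowest count of any member was 7, for CHAC1 in Vector EDTA 1 and for VLDLR in Addback NA 1. The limit that 3 reads set was at most 0.1913 CPM in any library, for counting error only.

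Among the transcription factors, ATF4 (ENSG00000128272, chr22:39519695-39522685, plus strand; gene coordinates are GRCh38, GENCODE 29) varied least. It was at 510 and 496 CPM in Addback EDTA, 486 and 502 CPM in Addback NA, 442 and 443 CPM in B4-4 EDTA, 472 and 671 CPM in B4-4 NA, 648 and 676 CPM in Vector EDTA and 653 and 656 CPM in Vector NA. The highest library was 1.53 times the lowest, and the Vector EDTA and Vector NA libraries overlapped. The EDTA difference in Vector was 0.02 ± 0.13 (SE) with a 95% interval of -0.26 to 0.30. Against Vector, ATF4 fell by 0.58 in B4-4 EDTA (SE 0.13; edgeR adjusted p = 0.00332), fell by 0.40 in Addback EDTA (SE 0.13; edgeR adjusted p = 0.0347) and fell by 0.40 in Addback NA (SE 0.13; edgeR adjusted p = 0.0274). The B4-4 EDTA call held in all 19 alternatives, none of which set a minimum on the size of the difference. The Addback EDTA call was lost in 10 of 18 and the Addback NA call in 5 of 19. Over these alternatives the difference was -0.44 to -0.35 for Addback EDTA and -0.44 to -0.36 for Addback NA. B4-4 NA could not be placed, since B4-4 NA 1 lay below both Addback NA libraries and B4-4 NA 2 above both Vector NA libraries.

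CEBPB (ENSG00000172216, chr20:50190734-50192689, plus strand), a C/EBP factor that pairs with ATF4, was at 95.5 and 88.0 CPM in Addback EDTA, 38.4 and 43.7 CPM in Addback NA, 101 and 114 CPM in B4-4 EDTA, 99.4 and 66.7 CPM in B4-4 NA, 59.5 and 65.7 CPM in Vector EDTA and 162 and 148 CPM in Vector NA. Addback NA was lowest and Vector NA highest. EDTA went with opposite differences in the derivatives: CEBPB rose in Addback EDTA against Addback NA, by 1.16 ± 0.16 (edgeR adjusted p = 0.000746), and fell by 1.31 in Vector EDTA against Vector NA (SE 0.16; edgeR adjusted p = 0.000292). In B4-4 the EDTA difference was 0.37 ± 0.16 (edgeR adjusted p = 0.119), not called. Both calls held under every alternative.

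ATF5 (ENSG00000169136, chr19:49928702-49933935, plus strand), a relative of ATF4 whose translation is controlled in the same way, was at 32.9 and 45.3 CPM in Addback EDTA, 26.9 and 27.3 CPM in Addback NA, 35.2 and 34.3 CPM in B4-4 EDTA, 29.8 and 31.0 CPM in B4-4 NA, 25.5 and 25.8 CPM in Vector EDTA and 17.4 and 17.2 CPM in Vector NA. The EDTA libraries lay above the NA libraries in all 3 derivatives, without overlap, and how many of all genes did so was not counted. It rose in Vector EDTA by 0.56 ± 0.14 (edgeR adjusted p = 0.0179) and in Addback EDTA by 0.53 ± 0.14 (edgeR adjusted p = 0.0211). In B4-4 EDTA the difference was 0.19 ± 0.14 (edgeR adjusted p = 0.342). Both calls were lost when a library of the compared groups was left out, for Vector EDTA with any of the 4 (adjusted p up to 0.126, difference 0.54 to 0.60) and for Addback EDTA without Addback EDTA 2 (0.28, adjusted p = 0.195) or without Addback NA 1 or 2, and also with the 4 Addback libraries fitted alone.

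The exons of ATF5 overlap those of NUP62, a nuclear pore gene on the opposite strand, and the strand setting of the counting is not given, so reads of the pair cannot be told apart. NUP62 was at 85.2 and 82.8 CPM in Addback EDTA, 54.2 and 57.2 CPM in Addback NA, 46.5 and 49.1 CPM in Vector EDTA and 55.3 and 59.0 CPM in Vector NA. In Vector its EDTA difference was -0.26 ± 0.10 (edgeR adjusted p = 0.101), opposite in sign to that of ATF5. In Addback NUP62 rose with EDTA, by 0.59 ± 0.10 (edgeR adjusted p = 0.0023), as ATF5 did. In B4-4 it rose with EDTA by 0.33 ± 0.10 (edgeR adjusted p = 0.0339), the same sign as the ATF5 difference of 0.19, which was not called. Against Vector EDTA, NUP62 rose by 0.86 ± 0.10 in B4-4 EDTA (edgeR adjusted p = 4.38e-05) and by 0.81 ± 0.10 in Addback EDTA (edgeR adjusted p = 0.000134).

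DDIT3 (ENSG00000175197, chr12:57516588-57521737, minus strand) was at 5.61 and 3.64 CPM in Addback EDTA, 2.69 and 4.99 CPM in Addback NA, 4.50 and 3.14 CPM in B4-4 EDTA, 17.5 and 4.79 CPM in B4-4 NA, 16.4 and 19.4 CPM in Vector EDTA and 8.80 and 9.87 CPM in Vector NA. Both Vector EDTA libraries lay above both Vector NA libraries, so CHOP mRNA stood on the opposite side to TRIB3 and CHAC1, which are known as genes downstream of it or of ATF4. The EDTA difference in Vector was 0.94 ± 0.50 (95% interval -0.21 to 2.09; edgeR adjusted p = 0.251) and was not called. In the 4 Vector libraries fitted alone it had an adjusted p of 0.00155. Without both B4-4 NA and both Addback EDTA libraries, a fit chosen after seeing the data, it had one of 0.00196. Over all alternatives the adjusted p ran from 0.00155 to 0.6. DDIT3 fell by 2.23 in B4-4 EDTA against Vector EDTA (SE 0.54; edgeR adjusted p = 0.0104) and fell by 1.95 in Addback EDTA against Vector EDTA (SE 0.54; edgeR adjusted p = 0.0251). These calls were lost in 4 of 19 and 7 of 18 alternatives, with adjusted p up to 0.0905 and 0.146.

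DDIT3 exons overlap those of MARS1, a methionine tRNA synthetase, and MBD6, both on the opposite strand, and the reads cannot be told apart here either. MARS1 was at 183 and 193 CPM in Vector EDTA and 272 and 268 CPM in Vector NA. MBD6 was at 66.1 and 68.1 CPM in Vector EDTA and 85.4 and 84.9 CPM in Vector NA. Both partners thus lay lower in Vector EDTA, where DDIT3 lay higher. Against Vector EDTA, where DDIT3 was called lower, the partners had the same sign as DDIT3 and were not called: MARS1 had -0.20 in B4-4 EDTA and -0.09 in Addback EDTA, and MBD6 had -0.12 in B4-4 EDTA and -0.19 in Addback EDTA.

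TRIB3 (ENSG00000101255, chr20:362835-397559, plus strand), a pseudokinase induced by ATF4 and CHOP that feeds back on ATF4, was at 108 and 92.8 CPM in Addback EDTA, 71.9 and 74.1 CPM in Addback NA, 80.4 and 87.8 CPM in B4-4 EDTA, 83.7 and 77.0 CPM in B4-4 NA, 105 and 116 CPM in Vector EDTA and 300 and 288 CPM in Vector NA. Vector NA stood apart, and the other 5 groups lay between 71.9 and 116 CPM. The B4-4 NA libraries were close for this gene. It fell by 1.42 in Vector EDTA against Vector NA (SE 0.11; edgeR adjusted p = 1.19e-05), fell by 1.87 in B4-4 NA against Vector NA (SE 0.11; edgeR adjusted p = 7.07e-06) and fell by 2.01 in Addback NA against Vector NA (SE 0.11; edgeR adjusted p = 1.58e-07). These 3 calls held under every alternative. In Addback EDTA against Addback NA it rose by 0.46 ± 0.11 (edgeR adjusted p = 0.012), a call that was lost without Addback EDTA 1 (0.36), Addback NA 1 (0.44) or Addback NA 2 (0.49), with adjusted p up to 0.114.

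CHAC1 (ENSG00000128965, chr15:40952962-40956519, plus strand), an enzyme that degrades glutathione, had the widest range of the 10. It was at 2.28 and 0.967 CPM in Addback EDTA, 1.62 and 0.596 CPM in Addback NA, 1.97 and 1.12 CPM in B4-4 EDTA, 0.919 and 0.894 CPM in B4-4 NA, 0.324 and 0.532 CPM in Vector EDTA and 11.8 and 13.1 CPM in Vector NA. These levels rest on 210 and 255 reads in Vector NA and on 7 to 39 reads in the other 10 libraries. CHAC1 was 28.5-fold lower in Vector EDTA than in Vector NA (log2 fold change -4.83 ± 0.48, 95% interval -5.89 to -3.78; edgeR adjusted p = 8.85e-05). It fell by 3.77 in B4-4 NA (SE 0.45; edgeR adjusted p = 0.0011) and fell by 3.49 in Addback NA (SE 0.44; edgeR adjusted p = 0.000104) against Vector NA, and the Addback NA difference was -4.37 without Addback NA 1 and -2.94 without Addback NA 2. Under EDTA the order turned: CHAC1 rose by 1.83 ± 0.55 in B4-4 EDTA (edgeR adjusted p = 0.0174) and by 1.90 ± 0.55 in Addback EDTA (edgeR adjusted p = 0.0211) against Vector EDTA. The last 2 calls were each lost in 3 alternatives, without B4-4 EDTA 1, Addback EDTA 1 or either Vector EDTA library, with adjusted p up to 0.154 and 0.195. The difference was 1.36 to 2.23 for B4-4 EDTA and 1.16 to 2.39 for Addback EDTA over the alternatives, the 1.16 without Addback EDTA 1.

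STC2 (ENSG00000113739, chr5:173314713-173329503, minus strand), the secreted glycoprotein stanniocalcin 2, was at 59.0 and 66.5 CPM in Addback EDTA, 50.6 and 46.4 CPM in Addback NA, 65.2 and 63.2 CPM in B4-4 EDTA, 67.2 and 47.8 CPM in B4-4 NA, 42.6 and 44.1 CPM in Vector EDTA and 143 and 142 CPM in Vector NA. As for CHAC1, Vector held both the highest and the lowest group. STC2 fell by 1.71 in Vector EDTA against Vector NA (SE 0.14; edgeR adjusted p = 2.16e-05), fell by 1.31 in B4-4 NA (SE 0.14; edgeR adjusted p = 0.000409) and fell by 1.55 in Addback NA (SE 0.14; edgeR adjusted p = 9.25e-06) against Vector NA. With the 4 libraries compared fitted alone, the B4-4 NA difference of -1.31 was not called (adjusted p = 0.138). Under EDTA it rose by 0.56 ± 0.14 in B4-4 (edgeR adjusted p = 0.0058) and by 0.53 ± 0.14 in Addback (edgeR adjusted p = 0.0123) against Vector, calls lost without Vector EDTA 1 (adjusted p up to 0.0525 and 0.0892) and, for Addback, without Addback EDTA 2.

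VLDLR (ENSG00000147852, chr9:2621834-2660053, plus strand), the very low density lipoprotein receptor, was scarce, at 0.760 and 0.796 CPM in Addback EDTA, 0.392 and 1.08 CPM in Addback NA, 1.91 and 1.76 CPM in B4-4 EDTA, 2.99 and 1.92 CPM in B4-4 NA, 2.04 and 1.86 CPM in Vector EDTA and 4.76 and 4.78 CPM in Vector NA. All 4 Addback libraries, with 7 to 20 reads each, lay below all 8 others. How many of all genes did so was not counted. VLDLR fell by 2.68 in Addback NA against Vector NA (SE 0.38; edgeR adjusted p = 0.000219), fell by 1.72 in Addback NA against B4-4 NA (SE 0.39; edgeR adjusted p = 0.00858) and fell by 1.32 in Addback EDTA against Vector EDTA (SE 0.39; edgeR adjusted p = 0.0242). In Addback EDTA against B4-4 EDTA the difference was -1.23 ± 0.40 (edgeR adjusted p = 0.0596). The difference from Vector NA was -2.13 without Addback NA 1 and -3.59 without Addback NA 2, called in both. The difference from B4-4 NA was -1.18 and not called without Addback NA 1 (adjusted p = 0.086; up to 0.102 over the alternatives), and it was -2.64 without Addback NA 2, while the difference from Vector EDTA was lost without any 1 of its 4 libraries (adjusted p up to 0.1).

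The 2 genes known to restrain the growth kinase mTORC1 were SESN2 and DDIT4. SESN2 (ENSG00000130766, chr1:28259527-28282491, plus strand), the leucine sensor sestrin 2, was at 52.9 and 29.5 CPM in Addback EDTA, 34.5 and 27.5 CPM in Addback NA, 33.6 and 34.7 CPM in B4-4 EDTA, 65.7 and 40.7 CPM in B4-4 NA, 46.7 and 51.5 CPM in Vector EDTA and 86.2 and 87.8 CPM in Vector NA. DDIT4 (ENSG00000168209, chr10:72273920-72276036, plus strand), also called REDD1, was at 50.5 and 58.3 CPM in Addback EDTA, 29.1 and 71.9 CPM in Addback NA, 41.9 and 52.6 CPM in B4-4 EDTA, 65.0 and 15 CPM in B4-4 NA, 34.8 and 35.1 CPM in Vector EDTA and 183 and 176 CPM in Vector NA. For both genes Vector NA was highest with close replicates, while the B4-4 NA replicates differed 1.61-fold for SESN2 and 4.33-fold for DDIT4.

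SESN2 fell by 1.49 in Addback NA against Vector NA (SE 0.28; edgeR adjusted p = 0.00273), and this call held under every alternative. In Vector EDTA against Vector NA neither gene was called: SESN2 had -0.82 ± 0.27 (edgeR adjusted p = 0.0681) and DDIT4 had -2.36 ± 0.67 (edgeR adjusted p = 0.0621), although their Vector groups did not overlap. With the 4 Vector libraries fitted alone the same differences had adjusted p of 0.000283 for SESN2 and 1.79e-06 for DDIT4. Without both B4-4 NA and both Addback EDTA libraries they were 8.08e-06 for SESN2 and 0.0172 for DDIT4, and over all alternatives the highest were 0.316 and 0.25. DDIT4 had -1.83 ± 0.66 in Addback NA against Vector NA (edgeR adjusted p = 0.072), and the difference was -1.32 without Addback NA 1 (adjusted p = 0.267) and -2.63 without Addback NA 2 (adjusted p = 0.0694). Without B4-4 NA 1 it was -1.82 with an adjusted p of 0.0146, the adjusted p over the alternatives being 0.0121 to 0.267.

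EDTA was compared with NA within each derivative. In Vector, TRIB3, CHAC1, STC2, VLDLR and CEBPB fell and ATF5 rose, so 6 of the 10 genes were called, against 15.3% of all genes tested (6.36% higher and 8.98% lower). The VLDLR difference was -1.29 ± 0.33 (edgeR adjusted p = 0.0201), a call that was lost when any of the 4 Vector libraries was left out (adjusted p up to 0.122). The median of the 10 log2 fold changes was -1.30, against 0 over all genes. The basal markers summed to 11200 to 11900 CPM in Vector EDTA and 15200 to 15300 CPM in Vector NA, and the fibroblast markers to 27.7 CPM in both Vector EDTA libraries and 14.3 to 15.3 CPM in Vector NA. Their part in the result was not tested. With the 4 Vector libraries fitted alone the count was 9, when DDIT3, SESN2 and DDIT4 were called as well. Over all genes that fit called 4672, against 2416 in the main fit. Leaving out either B4-4 NA library also raised both the count among the 10 and that over all genes. Leaving out any 1 of the 4 Vector libraries lowered both.

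In Addback, TRIB3, CEBPB and ATF5 rose and none fell, 3 of 10 against 16.9% of all genes (8.64% higher and 8.29% lower). Without Addback NA 1 or Addback NA 2 this count was 1, CEBPB, and with either Addback EDTA library left out it was 2. In B4-4, EDTA went with 0 calls among the 10, against 19.9% of all genes (9.88% higher and 10% lower) by edgeR's quasi-likelihood test. At an unadjusted p under 0.05 there were 4, ATF4 and DDIT3 and SESN2 lower and CEBPB higher, where 5434 of all 15749 genes passed. DESeq2 called 2 of the 10. This comparison turned on which B4-4 NA library was used. Without B4-4 NA 1 the calls were ATF4 at -0.60, STC2 at 0.42 and CEBPB at 0.68, and without B4-4 NA 2 they were DDIT3 at -2.18 and SESN2 at -0.94.

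**Figure D2:**
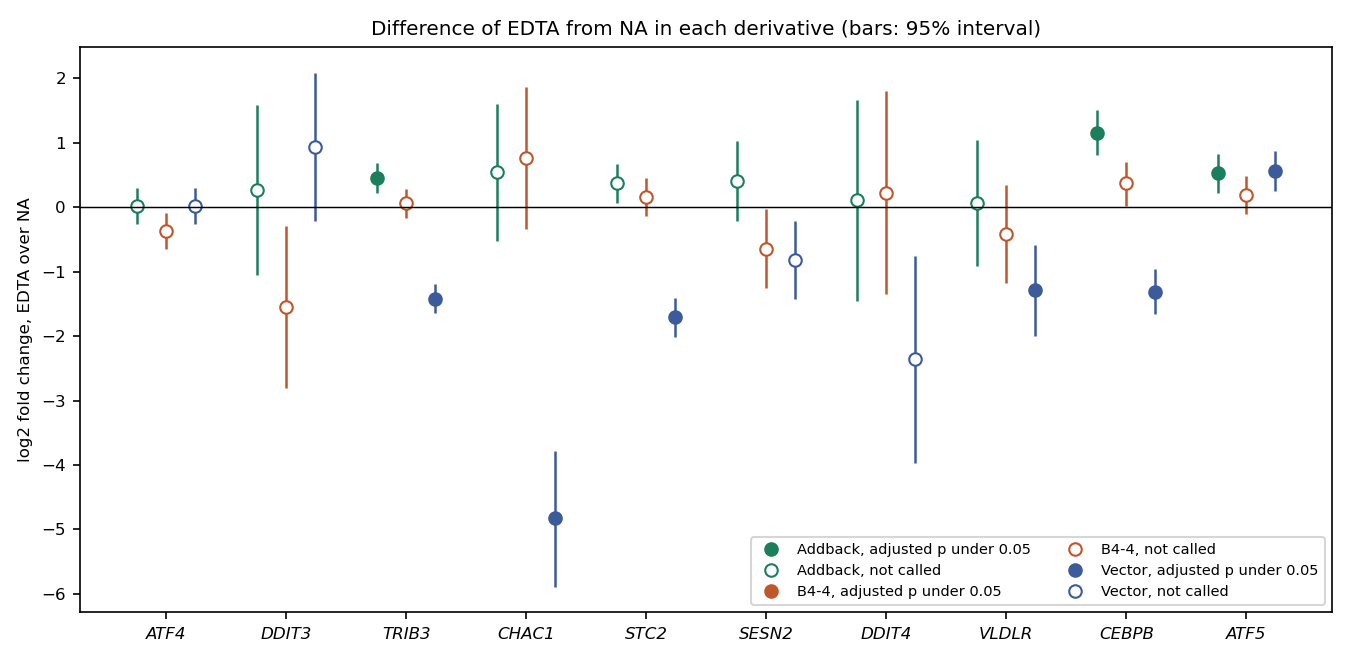
Log2 fold change of EDTA over NA for each of the 10 genes in Addback (green), B4-4 (orange) and Vector (blue), with 95% intervals. Filled points have an adjusted p under 0.05. In Vector 5 filled points lie below 0, with CHAC1 lowest at -4.83, whereas in Addback 3 lie above 0 and in B4-4 none is filled.

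The difference between these EDTA effects was tested itself. Against Vector, the B4-4 effect was higher for TRIB3 by 1.48 ± 0.15, CHAC1 by 5.6 ± 0.70, STC2 by 1.87 ± 0.19 and CEBPB by 1.67 ± 0.22, and lower for DDIT3 at -2.49 ± 0.75, which made 5 of 10 against 27% of all genes (14.4% higher and 12.6% lower). The Addback effect was higher than that of Vector for TRIB3 by 1.88 ± 0.15, CHAC1 by 5.38 ± 0.69, STC2 by 2.08 ± 0.20, CEBPB by 2.47 ± 0.23 and SESN2 by 1.23 ± 0.38, again 5 of 10, against 24.2% of all genes (13.4% higher and 10.8% lower). TRIB3, CHAC1, STC2 and CEBPB kept both calls under every alternative, and the Addback value of CHAC1 was 4.66 without Addback EDTA 1 and 6.27 without Addback NA 1. SESN2 (edgeR adjusted p = 0.0434) lost its call in 11 of 18 alternatives, with a difference of 0.76 to 1.6 and adjusted p up to 0.163. DDIT3 (edgeR adjusted p = 0.039) lost its call in 7 of 18, and its difference was -1.27 without B4-4 NA 1 and -3.12 without B4-4 NA 2, with adjusted p up to 0.152. Addback and B4-4 differed in their EDTA effect for 1 gene, CEBPB, by 0.79 ± 0.22 (edgeR adjusted p = 0.0478), against 8.78% of all genes (4.22% higher and 4.57% lower). That call was lost in 14 of 18 alternatives, with a difference of 0.47 to 1.05 and adjusted p up to 0.202. These 3 tests share libraries with one another and with the comparisons of EDTA with NA.

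The derivatives were next compared under the same label. With NA, B4-4 had lower TRIB3, CHAC1, STC2 and CEBPB and higher ATF5 than Vector, 5 of 10 called against 7.16% of all genes (3.38% higher and 3.78% lower). CEBPB fell by 0.90 (SE 0.16; edgeR adjusted p = 0.0072) and ATF5 rose by 0.81 ± 0.14 (edgeR adjusted p = 0.00647). With the 4 libraries compared fitted alone, 2 of the 10 were called, TRIB3 and CHAC1, each with an adjusted p of 0.0494. CEBPB and ATF5 lost their calls without either Vector NA library. Over the alternatives their differences were -1.22 to -0.64 and 0.78 to 0.84. More of the 10 were called without B4-4 NA 1 or without B4-4 NA 2. More of all genes were called in those fits too, so the 7.16% above is not their background. DDIT4 was -3.58 without B4-4 NA 1 (adjusted p = 0.0121) and -1.47 without B4-4 NA 2 (adjusted p = 0.144), and DDIT3 was -0.97 and 0.90 in these fits, not called in either. The basal markers, ITGB4 among them, summed to 10300 to 11500 CPM in B4-4 NA and 15200 to 15300 CPM in Vector NA. ITGB4 itself was at 182 and 395 CPM in B4-4 NA and 1770 and 1780 CPM in Vector NA. The part of these sums in the result was not tested.

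Addback NA had 8 of 10 called against Vector NA, with ATF4, TRIB3, CHAC1, STC2, SESN2, VLDLR and CEBPB lower and ATF5 higher, whereas 36.1% of all genes were called (17.9% higher and 18.1% lower). CEBPB fell by 1.92 (SE 0.16; edgeR adjusted p = 6.88e-06), and ATF5 rose by 0.64 ± 0.14 (edgeR adjusted p = 0.0038). DDIT3 had -1.28 ± 0.55 (edgeR adjusted p = 0.104). It was called when both B4-4 NA and both Addback EDTA libraries were left out (adjusted p = 0.00053), as was DDIT4 (adjusted p = 0.0238). That fit was chosen after seeing the data, and the share of all genes it called is not set beside these calls. The blood markers, of which 1 of 5 passed the filter on low counts, summed to 47.5 to 54.7 CPM in Addback NA and 13.1 to 14.1 CPM in Vector NA. Fibroblast markers summed to 42.4 to 43.1 CPM in Addback NA and 14.3 to 15.3 CPM in Vector NA. Basal markers, ITGB4 among them, summed to 9510 to 9870 CPM in Addback NA and 15200 to 15300 CPM in Vector NA. Their part in the result was not tested. Addback NA against B4-4 NA gave 2 calls, VLDLR and CEBPB, both lower, against 23.6% of all genes (11.3% higher and 12.3% lower). CEBPB fell by 1.02 (SE 0.16; edgeR adjusted p = 0.00109), fell by 0.69 without B4-4 NA 1 and fell by 1.28 without B4-4 NA 2. The count was 5 without B4-4 NA 2, when DDIT3 at -2.19, STC2 at -0.48 and SESN2 at -1.09 were called too, and 1 without Addback NA 1.

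Under EDTA the 2 derivatives differed from Vector in a mixed way. B4-4 EDTA against Vector EDTA gave 7 of 10 calls, with CHAC1, STC2, CEBPB and ATF5 higher and ATF4, DDIT3 and TRIB3 lower, against 43.4% of all genes (22.9% higher and 20.4% lower). CEBPB rose by 0.78 ± 0.16 (edgeR adjusted p = 0.00201), ATF5 by 0.44 ± 0.14 (edgeR adjusted p = 0.0208), and TRIB3 fell by 0.39 (SE 0.10; edgeR adjusted p = 0.00937). ATF5 lost its call without any 1 of the 4 libraries compared and TRIB3 without B4-4 EDTA 1 or Vector EDTA 2, and the count was 3 without B4-4 EDTA 1 or Vector EDTA 2 and 4 without Vector EDTA 1.

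Addback EDTA against Vector EDTA also gave 7 calls, with CHAC1, STC2, CEBPB and ATF5 higher and ATF4, DDIT3 and VLDLR lower, against 30% of all genes (16.1% higher and 14% lower). CEBPB rose by 0.55 ± 0.16 (edgeR adjusted p = 0.0203) and ATF5 by 0.61 ± 0.14 (edgeR adjusted p = 0.00575). CEBPB lost its call without Addback EDTA 1 or either Vector EDTA library (adjusted p up to 0.163), and ATF5 lost its call without Addback EDTA 2 (adjusted p = 0.0607). This count was 1 without Vector EDTA 1, 2 without Vector EDTA 2 or Addback EDTA 2, and 3 without Addback EDTA 1. Addback EDTA against B4-4 EDTA gave 0 calls among the 10, against 14.1% of all genes (6.54% higher and 7.54% lower) by edgeR. At an unadjusted p under 0.05 there were 2, TRIB3 and VLDLR, where 4644 of all 15749 genes passed. DESeq2 called 0 of the 10.

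**Figure D3:**
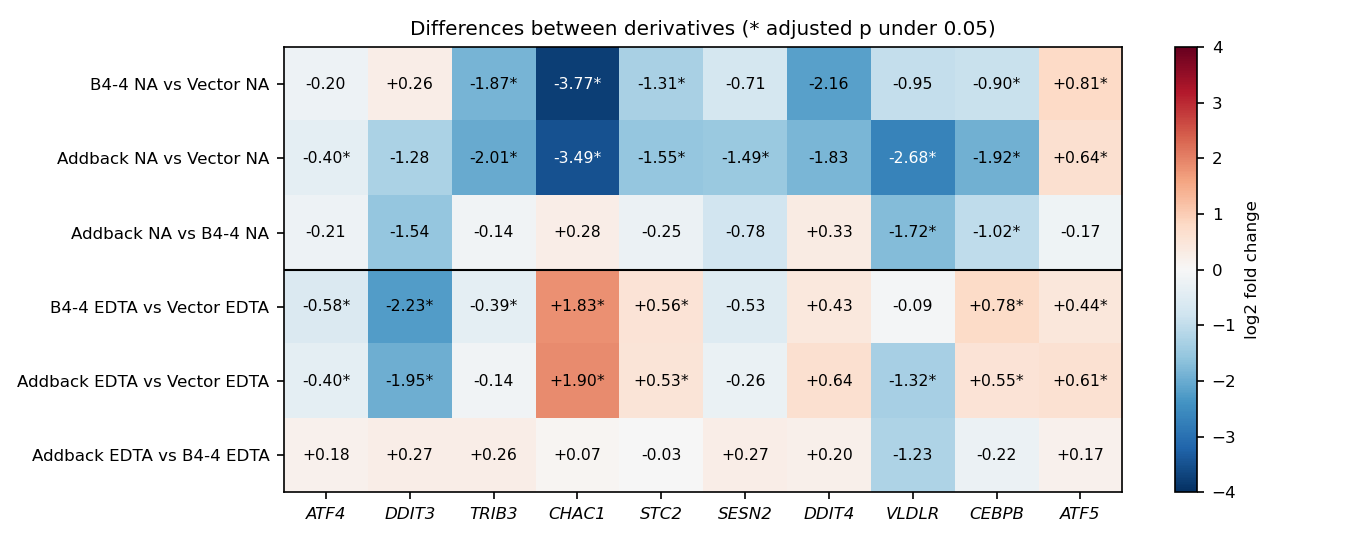
Log2 fold changes between derivatives for the 10 genes, NA above the line and EDTA below it, with colour from blue (lower in the derivative named at the left) to red (higher) and an asterisk at an adjusted p under 0.05. CHAC1 is -3.77 in B4-4 NA and -3.49 in Addback NA against Vector NA, and 1.83 in B4-4 EDTA and 1.90 in Addback EDTA against Vector EDTA.

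Other genes of the pathway were read from the same fits by lists. In Vector EDTA against Vector NA, the endoplasmic reticulum chaperones and targets of ATF6 or XBP1 rose in 8 of 15 and fell in none, where 6.36% of all genes rose and 8.98% fell, with a median of 0.39 against 0 over all genes. HSPA5 rose by 1.35 ± 0.11, DNAJB9, a co-chaperone, by 1.65 ± 0.15, DNAJC3, an inhibitor of the eIF2alpha kinase PERK, by 0.95 ± 0.12 and HERPUD1 by 1.01 ± 0.18. HSPA5 and HERPUD1 are the genes whose stress element core is shown beside that of DDIT3, which was not called in this comparison. DNAJB9 and DNAJC3, which also rose, had no such core in their windows. A part of the core in these differences was not tested. The enzymes for serine, asparagine and one-carbon units did not follow TRIB3 and CHAC1 as a list: 2 of 15 fell, PSPH at -0.68 ± 0.11 and GPT2 at -0.70 ± 0.17, and the median was -0.05.

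In the same comparison the tRNA synthetases had 1 of 20 lower, VARS1, and a median of -0.10. Of 10 tested amino acid transporters, 4 fell, among them SLC7A1 (-0.58 ± 0.11), SLC3A2 (-0.59 ± 0.14) and SLC7A11, the cystine carrier (-0.61 ± 0.16), and 1 rose, SLC38A2 by 0.92 ± 0.15. Among related transcription factors, JDP2 fell by 1.29 (SE 0.21) and CEBPG fell by 0.70 (SE 0.12), and NFE2L2 rose by 0.74 ± 0.12 and XBP1 by 0.61 ± 0.10. The eIF2alpha kinases and phosphatase subunits had 1 call of 9, GCN1, at -0.40 ± 0.11. Of 8 p53 targets, 4 fell and 1 rose, and GDF15 fell by 1.64 (SE 0.26). The hypoxia and glucocorticoid-induced genes, known for inputs that also raise DDIT4, had medians of 0.19 and 0.30.

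In B4-4 NA against Vector NA the amino acid lists were lower, as TRIB3 and CHAC1 were. The serine, asparagine and one-carbon enzymes fell in 7 of 15 and rose in none (median -0.58), the tRNA synthetases fell in 7 of 20 (median -0.28) and the transporters in 6 of 10 (median -0.70), where 3.78% of all genes fell and the median over all genes was 0.02. With the 4 libraries compared fitted alone, 6 genes were called in the whole table, TRIB3 and CHAC1 among them, so at most 4 of these list calls can hold in that fit. PSAT1 fell by 0.90 (SE 0.11), ALDH1L2 fell by 0.97 (SE 0.15), EPRS1 fell by 0.69 (SE 0.08), IARS1 fell by 0.52 (SE 0.08) and SLC7A11 fell by 1.45 (SE 0.16). The chaperone list rose in 6 of 15, against 3.38% of all genes, and fell in 1, with HSPA5 up by 0.92 ± 0.11. In Addback NA against Vector NA, 18.1% of all genes fell and 17.9% rose. There 6 of the 15 enzymes fell and 1 rose, and 8 of 15 chaperone genes rose. The synthetases, with 4 of 20 lower, were near that background, and of the transporters 3 of 10 fell. Both comparisons use the same Vector NA libraries, and the list counts were not recomputed with single libraries left out.

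In B4-4 EDTA against Vector EDTA, where 22.9% of all genes rose and 20.4% fell, 10 of the 15 enzymes fell and 2 rose. Of the 10 stress genes, CHAC1, STC2, CEBPB and ATF5 rose, and ATF4, DDIT3 and TRIB3 fell. PHGDH, the entry enzyme of serine synthesis, fell by 2.61 (SE 0.16), ASNS fell by 2.59 (SE 0.27) and PSAT1 fell by 1.09 (SE 0.11). The list's median was -0.58, against 0 over all genes, and that of the 10 stress genes was 0.17. The chaperone list had 5 of 15 higher and 5 lower, not far from the shares over all genes. Within it, DNAJB9 fell by 1.81 (SE 0.15) and HERPUD1 fell by 1.59 (SE 0.18). The glucocorticoid-induced list fell in 5 of 6, and TSC22D3 fell by 3.58 (SE 0.31).

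**Figure D4:**
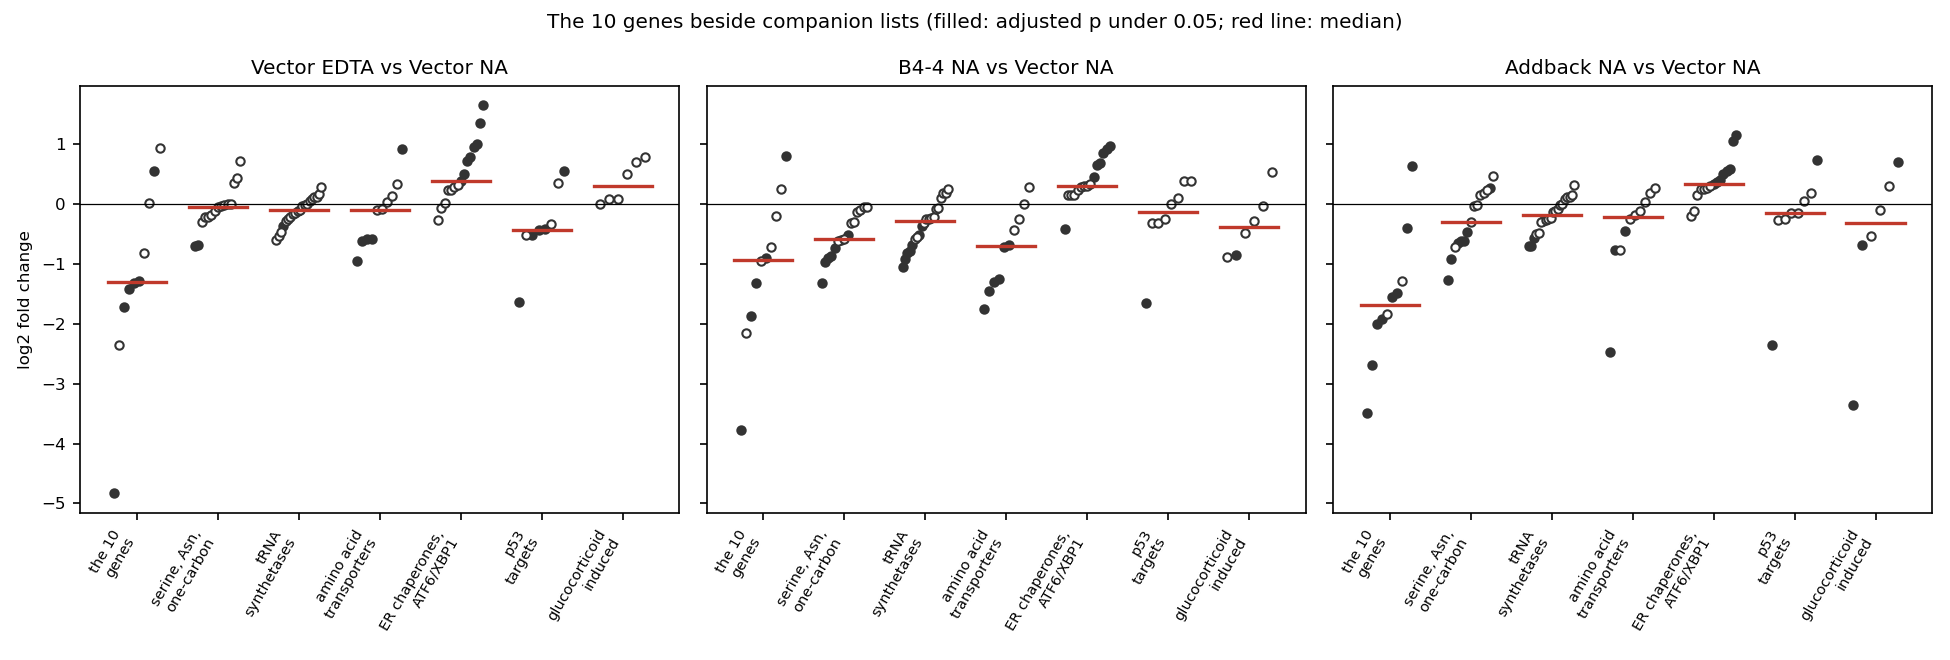
Log2 fold change of the 10 genes and of 6 lists in Vector EDTA, B4-4 NA and Addback NA, each against Vector NA. Each point is a gene, filled at an adjusted p under 0.05, and red lines are medians. The 10 genes have medians of -1.30, -0.93 and -1.69, and the chaperone list has 0.39, 0.30 and 0.33.

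Across the 12 libraries the pair of members most alike was CHAC1 and STC2, with a Pearson r of 0.933 on log2 CPM and a Spearman rho of 0.783. STC2 and CEBPB had r of 0.832 and rho of 0.825. TRIB3 and CHAC1 had r of 0.811 and rho of only 0.322, and their orders differed outside Vector NA: in Vector EDTA the group mean of CHAC1 was the lowest of all, and that of TRIB3 was below Vector NA alone. ATF5 had a negative r with each of the other 9 genes, down to -0.782 with TRIB3. Among 10541 other genes with at least 5 CPM, the closest to ATF4 were EML2 at r of 0.975 and OARD1 at 0.969, to DDIT3 RNF24 at 0.961 and CAMKK1 at 0.946, to TRIB3 PHC2 at 0.949 and NEK2 at 0.948, and to CHAC1 LRRC1 at 0.912 and PIF1 at 0.911. For CEBPB they were TRIM11 at 0.979 and TBC1D31 at 0.977, for STC2 ARHGEF2 at 0.951, and for VLDLR TAB2 at 0.967 and TMEM45A at 0.938. For SESN2 they were CYP4F3 at 0.953 and RGS3 at 0.948, for DDIT4 URB1 at 0.911 and WDFY2 at 0.904, and for ATF5 SZRD1 at 0.951 and POLE3 at 0.950. These values describe 12 points that share libraries and the 6 groups, chosen as the highest of many, and carry no test.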

How the data were processed

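Per the labels' protocols, polyA RNA was made into stranded libraries and read as pairs. The deposited table holds the authors' raw counts, whole numbers for each Ensembl gene. The submitters' processing notes list TopHat2 2.1.1, SAMtools 1.4.1 and featureCounts 1.5.3; no source used here gives the annotation release or the strand setting. With edgeR 4.0.16 (R 4.3.3), genes were filtered by filterByExpr over the 6 groups, scaled by TMM, and tested with robust quasi-likelihood fits of group means over all 12 libraries, Benjamini-Hochberg adjusted within each of 12 contrasts. SE is the absolute log2 fold change over the root of F. The members, the lists and the tests were chosen with earlier results of these data known. All 10 genes were named in every contrast, and from each list described up to 4 called genes with the smallest p. Genes alike had the highest r on log2 CPM (prior count 2). The alternatives tried comprised RLE and upper-quartile scaling, no low-count filter, DESeq2 (version 1.42.0), a replicate block, compared groups only, at least 2-fold, and each library left out. The 2-fold minimum was applied to counts of calls and is not among the alternatives given for single genes. Leaving out both B4-4 NA and both Addback EDTA libraries was chosen after seeing the data. For STC2, 1 gene of that rule is not reported here.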

Additional observations from a re-analysis of the deposited data

Results flagged for a closer look

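The difference of the EDTA effect between derivatives was itself tested in edgeR's quasi-likelihood fit. Of the 10 genes, 5 were called for B4-4 minus Vector, 5 for Addback minus Vector and 1 for Addback minus B4-4. Over all genes 27% were called for B4-4 minus Vector, 24.2% for Addback minus Vector and 8.78% for Addback minus B4-4. For B4-4 minus Vector the differences were -2.49 for DDIT3, 1.48 for TRIB3, 5.6 for CHAC1, 1.87 for STC2 and 1.67 for CEBPB. For Addback minus Vector they were 1.88 for TRIB3, 5.38 for CHAC1, 2.08 for STC2, 1.23 for SESN2 and 2.47 for CEBPB. For Addback minus B4-4 the difference was 0.79 for CEBPB. All are log2 values, and the 4 Vector libraries enter both of the larger sets. The calls of DDIT3, of SESN2 and of CEBPB in Addback minus B4-4 were lost in 7, 11 and 14 of 18 alternatives.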

How the results depend on the processing

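Of 49 calls over the 10 genes and 12 contrasts, 26 held whichever library was left out. Every alternative other than the 2-fold minimum kept 25 of them, and none changed sign while called. The 2-fold minimum was applied to counts of calls only, so no statement that a single gene kept or lost its call includes it. With groups of 2, leaving out a library of a compared group leaves a lone sample, which is assumed to vary like the other groups. The numbers of genes called among the 10 ranged as follows when each library was left out: Vector EDTA vs Vector NA 4 to 9, B4-4 EDTA vs B4-4 NA 0 to 3, Addback EDTA vs Addback NA 1 to 4, B4-4 NA vs Vector NA 3 to 8, B4-4 EDTA vs Vector EDTA 3 to 8, Addback NA vs B4-4 NA 1 to 5, Addback EDTA vs B4-4 EDTA 0 to 1, Addback NA vs Vector NA 7 to 10, Addback EDTA vs Vector EDTA 1 to 7, and for the differences of EDTA effects B4-4 minus Vector 4 to 7, Addback minus B4-4 0 to 5 and Addback minus Vector 4 to 6. With a 2-fold minimum the counts were 1 in Addback EDTA vs Addback NA, 3 in B4-4 NA vs Vector NA, 2 in B4-4 EDTA vs Vector EDTA, 3 in Addback EDTA vs Vector EDTA and 0 for Addback minus B4-4. In the compared groups only, they were 9 in Vector EDTA vs Vector NA, 2 in B4-4 NA vs Vector NA, 1 in Addback NA vs B4-4 NA and 0 for Addback minus B4-4. Without a filter they were 2 in B4-4 EDTA vs B4-4 NA, 1 in Addback EDTA vs B4-4 EDTA and 2 for Addback minus B4-4, and DESeq2 gave 2 in the first and 2 in the last. Upper-quartile scaling gave 1 in B4-4 EDTA vs B4-4 NA, and RLE scaling gave 0 for Addback minus B4-4. Without both B4-4 NA and both Addback EDTA libraries, 9 were called in Vector EDTA vs Vector NA. Shares over all genes given beside the main counts do not carry over to these fits, in which calls over all genes moved too. The cause of these changes was not tested.

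With the replicate number as a block the counts were 7 in Vector EDTA vs Vector NA, 3 in Addback NA vs B4-4 NA and 0 for Addback minus B4-4, and as before in the other 9 contrasts. Deviations of same-numbered libraries correlated from -0.17 to 0.305 over 15 pairs of groups, with 5 over 0.1 and 2 under -0.1. These mixed values do not settle whether the numbers pair the libraries.

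Counts over all genes moved more: with the compared groups only they were 4672 against 2416 in Vector EDTA vs Vector NA, 291 against 3138 in B4-4 EDTA vs B4-4 NA, 6 against 1128 in B4-4 NA vs Vector NA, 1290 against 3723 in Addback NA vs B4-4 NA, 9318 against 5681 in Addback NA vs Vector NA and 641 against 1383 for Addback minus B4-4. Without a filter they were 1874 in B4-4 NA vs Vector NA and 2103 for Addback minus B4-4. Leaving out single libraries gave 724 to 4020 in Vector EDTA vs Vector NA and 81 to 3319 in B4-4 NA vs Vector NA. With a 2-fold minimum they were 801, 845, 827 and 299 in Vector EDTA vs Vector NA, B4-4 EDTA vs B4-4 NA, Addback EDTA vs Addback NA and B4-4 NA vs Vector NA, and 678 to 2469 in the other 8 contrasts. Without both B4-4 NA and both Addback EDTA libraries the count in Vector EDTA vs Vector NA was 5653. Upper-quartile scaling moved the share of calls that were higher to 36.8%, against 49.6%, in B4-4 EDTA vs B4-4 NA and to 42%, against 53.4%, for B4-4 minus Vector, where it shifted the median of all genes to -0.12. Depth limits CHAC1 and VLDLR, which rest on 7 reads in their lowest library.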
